A study of Mus musculus with 8 samples.

Results

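Fgf14 and Fgf12 are a pair of long genes for intracellular fibroblast growth factors, and RNA from both was recovered with Ptbp2 along most of their length. Their members here were the sequenced RNA fragments (tags) whose midpoint lay on the minus strand within chr14:124376000-125080000 (Fgf14, gene ID 14169) or chr16:28155000-28760000 (Fgf12, gene ID 14167), both in mm9. The loci held 7938 of 3098854 tags, 5854 in Fgf14 and 2084 in Fgf12. The pair was selected on measured values, the tags of these same libraries, so the levels and clusters below are descriptions and support no claim that these genes stand out.

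The data came from Ptbp2 HITS-CLIP, in which ultraviolet light links a protein covalently to bound RNA before the complexes are recovered and their RNA is read out. All 8 libraries were made from the cortex of CD1 mouse embryos on embryonic day 18.5, and their titles mark them as wild type. The groups were 4 libraries of brain 2, with 1165859 tags in all, and 4 libraries of brain 1, with 1932995. No other genotype, antibody, input RNA or treatment was analysed here, so tag density reflects binding and transcript abundance together, and in bulk cortex fewer cells of a type and less RNA per cell cannot be told apart. The brains do not differ in any labelled condition, and the comparison between them therefore measures how repeatable the pattern was in a second animal. Single libraries held 228424 to 545387 tags. In their titles, libraries 1 and 2 of each brain carry the letter a, and libraries 3 and 4 the letter b. The labels do not explain these letters. Library 4 of brain 2 stood apart, with 18.6% of its tags at a position already seen in that library, against 8.09% to 12.8% in the other libraries.

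Most fibroblast growth factors are secreted and act on receptors at the cell surface. The fibroblast growth factor homologous factors, to which Fgf14 and Fgf12 belong, stay inside the cell and bind the C-terminal tails of voltage-gated sodium channels, whose gating and placement in neurons they modify. Each gene makes proteins with different N-termini from alternative first exons, so a start site far inside the gene lies within an intron of the transcript that starts upstream of it. In humans, mutations of FGF14 cause a form of spinocerebellar ataxia, and particular FGF12 variants cause an epileptic encephalopathy. Ptbp2 is a neuronal RNA-binding protein that contacts pyrimidine-rich stretches, often in introns, and regulates splicing.

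An inner start site of each gene is shown because it lies inside a locus that was tagged along most of its length. They come from RefSeq on GRCm38.p6, another build than that of the tags, so no tag was placed on them. Each run is 300 bases, 250 before to 50 after a listed start, on the minus strand, 5′ to 3′, and capitals mark the letters TCTT and CTCTCT, searched as pyrimidine motifs. The Fgf14 run is chr14:124192497-124192796, the one start listed for it, which lies 485 kb into the annotated gene. The Fgf12 run is chr16:28564902-28565201, the 2nd of 4 listed starts, 188 kb into the gene, shown as the most pyrimidine-rich of the 4 and so picked on its letters. By distance alone, both starts would fall in thinly tagged stretches. From 400 to 500 kb past its upstream bound, Fgf14 held 343 of its 5854 tags. In Fgf12 the 10 kb from 180 kb and from 190 kb held 13 and 6 tags, against a median of 32.5 per 10 kb.
Fgf14 start: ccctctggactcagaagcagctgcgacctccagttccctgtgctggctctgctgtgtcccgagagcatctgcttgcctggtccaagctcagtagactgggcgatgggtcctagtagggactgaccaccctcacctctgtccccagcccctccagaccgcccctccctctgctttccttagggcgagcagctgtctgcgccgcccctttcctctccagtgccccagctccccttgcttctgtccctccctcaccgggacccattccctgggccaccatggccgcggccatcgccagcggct
Fgf12 start 2: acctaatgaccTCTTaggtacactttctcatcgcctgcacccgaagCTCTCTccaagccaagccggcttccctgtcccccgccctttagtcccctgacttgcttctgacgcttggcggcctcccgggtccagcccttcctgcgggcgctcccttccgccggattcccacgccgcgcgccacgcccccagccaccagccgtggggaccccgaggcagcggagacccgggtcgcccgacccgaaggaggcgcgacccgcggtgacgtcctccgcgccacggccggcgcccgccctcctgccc
The Fgf14 run was 63.7% pyrimidine, above 98.6% of 32851 promoters of this length, whose median was 49.7%. It held neither motif on either strand. The Fgf12 run was 61.3% pyrimidine, above 97.2% of promoters, and held 1 TCTT and 1 CTCTCT on the gene's strand. The other 3 Fgf12 starts were nearer the middle of all promoters. The outermost, the 1st, was 45% pyrimidine (above 19.9% of promoters), the 3rd 48.3% (above 39.8%) and the 4th 54% (above 78.0%). Of the related genes, the 4 starts of Fgf13 ranged from 47% to 58% and the 1 start of Fgf11 was 38.7% pyrimidine. TCTT was found on the gene's strand of 69.9% of all promoters and on the opposite strand of 70.8%, and CTCTCT on 14.1% and 15.6%, and these motifs can overlap (CTCTCTT holds both). These matches describe the letters only and are not binding sites.

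Fgf14 was the more heavily tagged of the pair. Its 5854 tags were 0.189% of all tags and 6.57% of those on the minus strand of chromosome 14, or 8.32 tags per kb over 704 kb. Fgf12 held 0.0673% of all tags and 2.81% of those on the minus strand of chromosome 16, or 3.44 tags per kb over 605 kb. The ratio of Fgf14 to Fgf12 was thus 2.81 in tags and 2.41 in tags per kb. Within single libraries the ratio in tags was 3.10, 2.41, 2.92 and 3.01 in brain 2, against 2.96, 2.90, 2.68 and 2.63 in brain 1. The groups overlapped (difference of mean log2 ratios, brain 2 minus brain 1, 0.03, two-sided exact permutation p = 0.771).

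Both loci were tagged on the strand of the gene. In Fgf14, 97.3% of tags of either strand were on the gene's strand (95% Clopper-Pearson interval 96.8 to 97.7%, which like all intervals here covers counting error only), with 164 tags opposite. In Fgf12 the share was 96.4% (95.5 to 97.1%), with 78 opposite. Upstream of Fgf14 the tags thinned at the bound, while at both bounds of Fgf12 they were already sparse inside the locus. The 10 kb before the upstream bound held 0 tags for either gene, against 31 in the first 10 kb inside Fgf14 and 4 inside Fgf12. Past the downstream bound, 10 kb held 5 tags after Fgf14 and 4 after Fgf12, against 31 and 5 in the last 10 kb inside. Of those 31 tags in Fgf14, 22 lay in the cluster chr14:124376092-124376127. Over 100 kb the upstream flank of Fgf14 held 173 tags (1.73 per kb) and the downstream flank 69 (0.69 per kb). The flanks of Fgf12 held 58 and 27.

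Tags were not spread evenly along Fgf14. Measured from the upstream bound in the direction of transcription, successive 100-kb segments held 1094, 1395, 1411, 902, 343, 313 and 369 tags, with 27 in the last 4 kb. The first 400 kb were thus dense and the rest sparse. Of the tags, 25% lay within 131 kb, 50% within 223 kb and 75% within 353 kb. The same 3 distances were 132, 223 and 353 kb in brain 2, and 128, 223 and 353 kb in brain 1.

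Fgf12 had a dense stretch next to its upstream bound and another from 400 to 500 kb. Its 100-kb segments held 595, 329, 251, 210, 461 and 237 tags, with 1 in the last 5 kb, so that the segments from 200 to 400 kb and the last full one were the thinnest. The first 25% lay within 83.4 kb, 50% within 234 kb and 75% within 422 kb. The distances were 84.8, 228 and 420 kb in brain 2, and 82.5, 244 and 431 kb in brain 1.

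**Figure D1:**
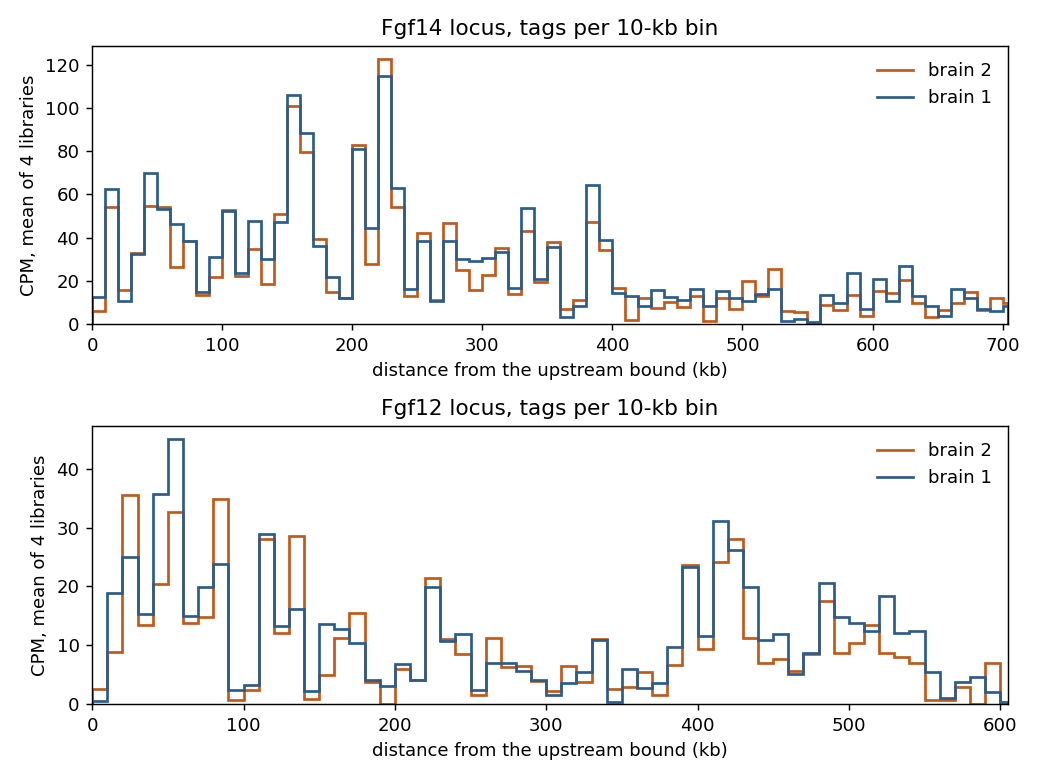
Tags in 10-kb bins along Fgf14 (top) and Fgf12 (bottom), as CPM (tags scaled to the library's total, mean of 4 libraries), against distance from the upstream bound in kb, for brain 2 (orange) and brain 1 (blue). Fgf14 is dense over its first 400 kb, and Fgf12 has its fullest bins near the upstream bound and a second rise past 380 kb.

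At a finer scale the pattern repeated between the animals. Of the full 10-kb bins none was empty, with 2 to 366 tags in Fgf14 (median 51.5, 70 bins) and 3 to 123 in Fgf12 (median 32.5, 60 bins). The 15 fullest bins of Fgf14 held 50.8% of its tags, and the 13 fullest of Fgf12 held 48.8%. The CPM of brain 2 and brain 1 correlated across bins with a Pearson r of 0.96 in Fgf14 (n = 70) and 0.86 in Fgf12 (n = 60). Bins of a locus share the transcript and the libraries, so these values describe likeness only.

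The fullest 10-kb windows, on a fixed grid and by genomic start, were the peaks of these profiles. In Fgf14 the window from 124850001 to 124860000 held 366 tags and ranked 68th of 34816 windows with 20 or more tags. It held 31, 23, 59 and 30 tags in the libraries of brain 2, against 68, 52, 47 and 56 in those of brain 1. Scaled to depth this was 123 ± 42.6 CPM in brain 2 and 115 ± 9.61 CPM in brain 1 (SD, n = 4 each), and library 3 of brain 2 was the highest. The next were the windows from 124920001 (323 tags) and 124910001 (265 tags), side by side. In Fgf12 the fullest were those from 28700001 (123 tags), 28710001 (93 tags) and 28730001 (90 tags), all near the upstream bound. Of windows with 20 or more tags, Fgf14 had 63, of which 53 lay above the series median of 32 and 21 in the fullest 5%. Fgf12 had 37, of which 30 lay above the median and 1 in the fullest 5%.

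A larger share of the tags of Fgf14 than of Fgf12 lay in clusters. A cluster is a run of overlapping tags pooled over libraries, and its height counts the tags at its most covered base. Those with a height of at least 10 held 36.9% of the tags of Fgf14 and 14.9% of those of Fgf12, against 15.7% in the whole series. Tags that overlapped no other made up 16.5% in Fgf14 and 28.5% in Fgf12, against 38.2% in the whole series. A denser locus has more overlaps, and these shares were not adjusted for density. Repeats of a position within a library were 18.9% of the tags in Fgf14 and 14.4% in Fgf12, against 11.5% in the whole series.

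Fgf14 had 95 such clusters (13.5 per 100 kb), with a median height of 15, and Fgf12 had 20 (3.31 per 100 kb), with a median height of 13. Of the 95 in Fgf14, 81 lay upstream of the midpoint of the locus, as did 10 of the 20 in Fgf12. All 95 and all 20 held tags of both brains, and 27 in Fgf14 and 2 in Fgf12 held tags of all 8 libraries. Because the clusters were built from pooled tags, most would hold both brains in any case, and 1 tag of brain 2 sufficed in some. The same shares over all clusters of the series were not computed, so these counts do not measure repeatability. Another cluster lay within 1000 nt of 48 of those in Fgf14 (50.5%) and of 4 in Fgf12 (20%), against 20.6% in the series. A height of 20 was reached by 29 in Fgf14 (30.5%) and 5 in Fgf12 (25%), against 26.1% in the series. With each position counted once per library, 63 of the 95 and 10 of the 20 kept a height of 10.

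**Figure D2:**
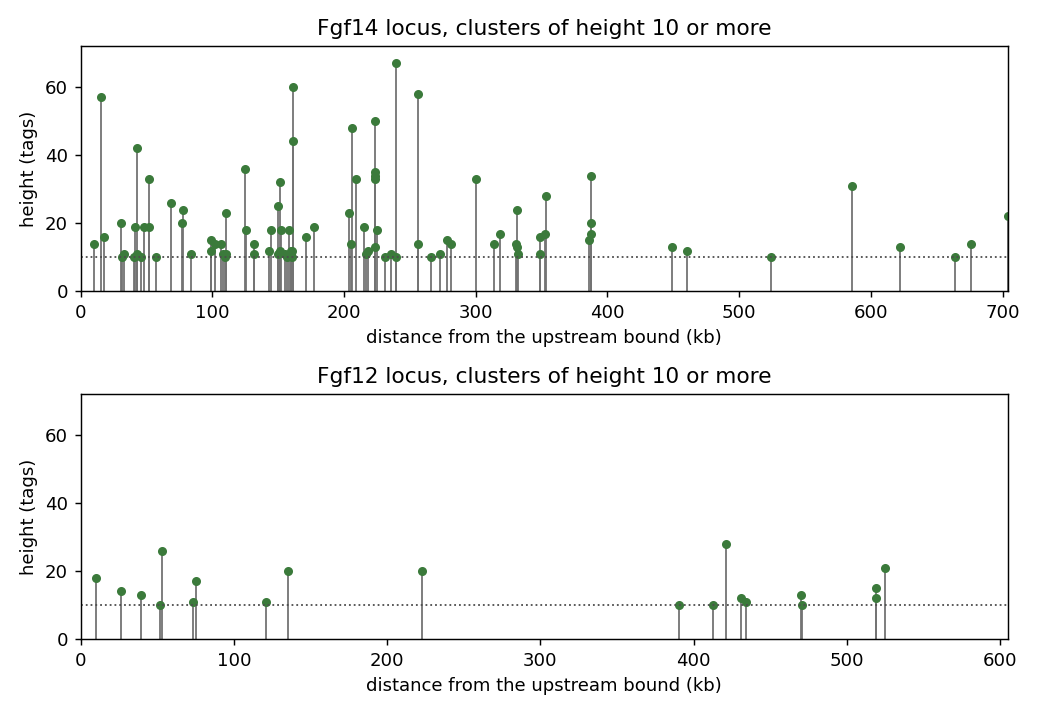
Height in tags of each cluster of height 10 or more along Fgf14 (top, 95 clusters) and Fgf12 (bottom, 20 clusters), against distance from the upstream bound in kb. The dotted line marks a height of 10, and the tallest clusters reach 67 in Fgf14 and 28 in Fgf12.

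The 5 tallest clusters of Fgf14 all lay upstream of the midpoint of the locus. The tallest, chr14:124840804-124840853 on the minus strand, had a height of 67 and lay 239 kb in. It held 7, 5, 13 and 9 tags in the libraries of brain 2, against 10, 8, 6 and 9 in those of brain 1. This gave 29.7 ± 11.4 CPM in brain 2 and 17.0 ± 2.72 CPM in brain 1 (SD, n = 4 each). Of its tags 73.1% shared one start and end, and with positions counted once its height was 23. It did not pass the filter on low counts. Without the filter the log2 change was 0.58 ± 0.34 (SE, limma voom, adjusted p = 0.716).

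The cluster chr14:124918532-124918635 followed with a height of 60. It held 7, 4, 9 and 5 tags in brain 2, against 6, 10, 10 and 13 in brain 1, and its largest stack was 20.3% of its tags. The cluster chr14:124823834-124823869, of height 58, held 6, 5, 4 and 7 tags in brain 2, against 10, 6, 14 and 6 in brain 1. The libraries of the brains overlapped at both.

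The cluster nearest the upstream bound among the tallest was chr14:125064639-125064736, 15.3 kb in, with a height of 57. It held 6, 6, 8 and 7 tags in brain 2, against 14, 13, 12 and 8 in brain 1, or 23.7 ± 5.16 CPM in brain 2 and 24.3 ± 4.98 CPM in brain 1 (SD, n = 4 each). The 5th, chr14:124856559-124856723, was 165 nt wide with a height of 50 and the most tags of any cluster in the locus, 93. It held 8, 4, 8 and 14 tags in brain 2, against 23, 10, 9 and 17 in brain 1 (31.7 ± 21.0 CPM in brain 2 and 29.9 ± 10.99 CPM in brain 1, SD, n = 4 each). The groups overlapped, with library 1 of brain 1 highest in raw tags. It stood in a chain of 5 neighbouring clusters near 223 kb, with heights of 50, 35, 34, 33 and 13, inside the fullest 10-kb window.

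The sparse downstream part of Fgf14 still held separate clusters. A cluster at chr14:124692248-124692300, 388 kb in, had a height of 34, and one at chr14:124494080-124494133, 586 kb in, had a height of 31. The last, chr14:124376092-124376127, had a height of 22 and lay at the downstream bound, with tags in all 8 libraries. These 3 are outside the rule of the 5 tallest and were picked after their values were seen.

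The tallest cluster of Fgf12, chr16:28339032-28339102, lay 421 kb in with a height of 28. It held 2, 4, 2 and 1 tags in brain 2, against 5, 4, 7 and 4 in brain 1. The next, chr16:28706815-28706855, lay 53.2 kb in with a height of 26 and held 0, 2, 1 and 0 tags in brain 2, against 5, 4, 7 and 7 in brain 1. The groups did not overlap there, and the sums were 3 tags in brain 2 and 23 in brain 1, which was sequenced more deeply. The cluster was too low for the filter. Without the filter its log2 change was -2.03 ± 0.88 (SE, limma voom, adjusted p = 0.618), which did not pass. The 3rd, chr16:28235225-28235274, of height 21, held 0, 1, 1 and 1 tags in brain 2, against 5, 5, 3 and 5 in brain 1. The groups did not overlap at this cluster either, and it did not pass (limma voom without the filter, adjusted p = 0.712). The share of all clusters of the series in which the brains do not overlap was not computed, so these separations cannot be called unusual. The other 2 named clusters, chr16:28624606-28624675 and chr16:28537532-28537563, both had a height of 20. In the second of these 95% of the tags shared one position.

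As a check on repeatability, clusters of height 5 or more were built from the tags of a single brain. In Fgf14, 82.9% of 82 clusters of brain 2 overlapped one of brain 1 (95% interval 73.0 to 90.3%), and 41.1% of 158 clusters of brain 1 overlapped one of brain 2 (33.4 to 49.2%). In Fgf12 the shares were 57.9% of 19 clusters of brain 2 (33.5 to 79.7%) and 25.6% of 43 clusters of brain 1 (13.5 to 41.2%). The intervals of the pair overlap, and the difference was not tested. The whole series gave 66.7% for brain 2 and 33.0% for brain 1, and brain 1 was sequenced more deeply.

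Clusters of Fgf14 formed long runs. Linking clusters 20 kb or less apart gave 13894 groups in the series, of which 183 held 10 or more. The larger of the runs in Fgf14, chr14:124903147-125069806, held 49 clusters and 1039 tags over 167 kb, and ranked 9th by number of clusters. Another, chr14:124726276-124876412, held 34 clusters and 912 tags over 150 kb, and ranked 20th. The largest in Fgf12, chr16:28706815-28750016, held 5 clusters and 86 tags over 43.2 kb, and ranked 494th. Nearest in rank to the larger Fgf14 run were chr9:27836285-28010135 (plus strand, 51 clusters), chr17:91250395-91471230 (minus, 50), chr12:110782392-110875828 (plus, 44) and chr16:72154825-72374206 (plus, 44). Those of Fgf12 each held 5 clusters, at chr8:9728134-9762793 (minus), chr10:106217545-106252846 (plus), chr2:134835608-134868464 (plus) and chr10:121404622-121442164 (minus). Likeness here is the number of clusters alone, ties ordered by tags.

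The level of neither locus passed the test between brains after adjustment. Fgf14 had 1645, 1525, 1910 and 1988 CPM in brain 2, against 2054, 2110, 1886 and 1816 CPM in brain 1. The groups overlapped, at 1767 ± 218 CPM in brain 2 and 1967 ± 138 CPM in brain 1 (SD, n = 4 each), a log2 change of -0.15 (two-sided exact permutation p = 0.2, adjusted p = 0.467 over 7 such tests). With libraries scaled by a trimmed mean of ratios over 100-kb windows, it was -0.09 (exact permutation p = 0.286), and it was also -0.09 without library 2 of brain 2 (exact permutation p = 0.4). Fgf12 had 531, 632, 654 and 661 CPM in brain 2, against 695, 727, 705 and 690 CPM in brain 1. Every library of brain 2 lay below every library of brain 1, at 620 ± 60.3 CPM in brain 2 and 704 ± 16.3 CPM in brain 1 (SD, n = 4 each), a log2 change of -0.18. The exact permutation p of 0.0286 is the smallest that 4 against 4 libraries can give, and it did not pass adjustment (adjusted p = 0.2). By the same scaling, 4.57% of 9975 windows of 100 kb had every library of brain 2 below every library of brain 1, and 0 of the 13 windows of these loci did. These windows are narrower than the Fgf12 locus, so the share is not that of units of its size. They also lie on a fixed grid, and the count depends on it. Counted from the upstream bound, the Fgf12 segment from 400 to 500 kb did separate, at 114 to 140 CPM in brain 2 and 152 to 166 CPM in brain 1. The share of such segments over the series was not computed. With the trimmed-mean scaling, the log2 change of the whole Fgf12 locus was -0.12 and the exact permutation p 0.0571.

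Where the tags lay within each locus did not pass the test between brains either. In Fgf14 the 352 kb upstream of the midpoint held 74.4% of the pooled tags (95% interval 73.3 to 75.6%). By library this was 76.6, 75.9, 75.1 and 71.4% in brain 2, against 75.5, 73.8, 71.5 and 75.8% in brain 1 (exact permutation p = 0.686). In Fgf12 the 302.5 kb upstream of the midpoint held 56.4% (54.2 to 58.5%). By library this was 56.3, 52.9, 58.7 and 67.5% in brain 2, against 55.7, 51.7, 57.4 and 56.5% in brain 1 (exact permutation p = 0.371). The 67.5% is that of library 4 of brain 2, the library with the most repeated positions, and without it the difference, brain 2 minus brain 1, was 0.69 percentage points, against 3.58 with it.

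The shares of the genes can be set side by side within each library. The share upstream of the midpoint was higher in Fgf14 than in Fgf12 in 8 of 8 libraries, by 17.4 ± 6.20 percentage points (SD, n = 8 libraries of 2 brains, range 3.82 to 23.0). No test is given, because this comparison was chosen after the profiles were seen. The share depends on where the bounds lie, and the smallest difference was that of library 4 of brain 2. Without that library the mean difference was 19.3 percentage points.

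The share of tags in clusters of height 10 or more was 41.1, 36.3, 38.6 and 39.9% in brain 2, against 37.2, 34.0, 36.7 and 35.6% in brain 1, for Fgf14. The groups overlapped (39.0 ± 2.08% in brain 2 and 35.9 ± 1.41% in brain 1, SD, n = 4 each, exact permutation p = 0.0857, adjusted p = 0.3). The difference, brain 2 minus brain 1, was 3.06 percentage points. With repeated positions counted once it was 4.69, and without library 2 of brain 2 it was 3.96 (exact permutation p = 0.0286 and adjusted p = 0.1 for each), so the direction held and neither passed adjustment. For Fgf12 it was 14.1, 15.9, 17.5 and 10.6% in brain 2, against 10.8, 15.3, 17.3 and 17.0% in brain 1 (exact permutation p = 0.771). In each library Fgf14 had the higher share of the pair, from 34.0 to 41.1% over libraries, and Fgf12 from 10.6 to 17.5%.

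**Figure D3:**
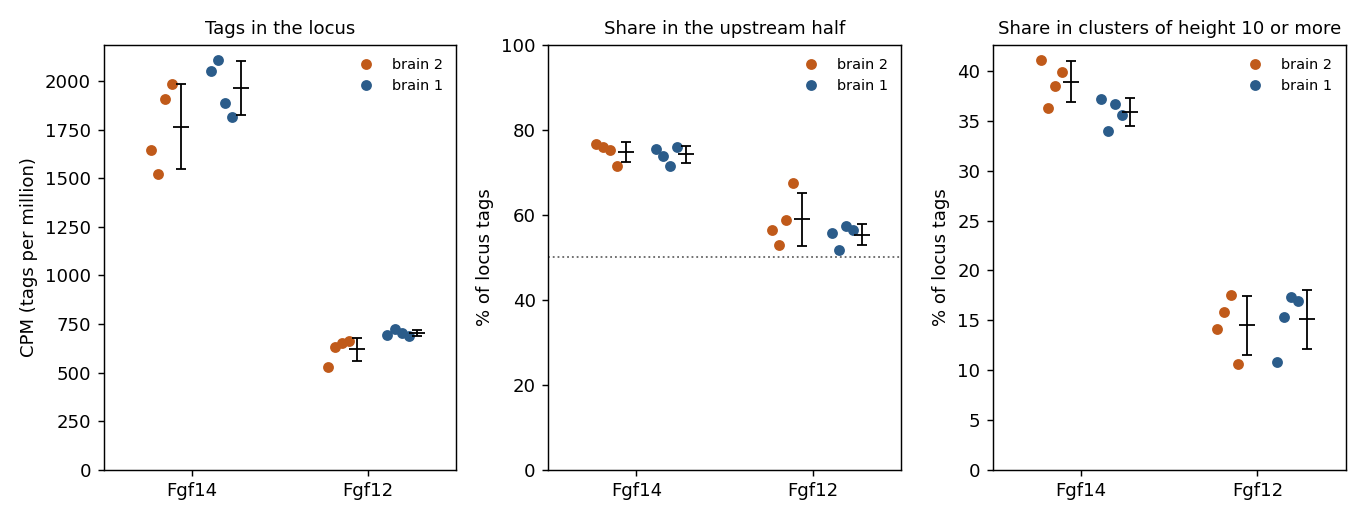
Values of each library for brain 2 (orange, left) and brain 1 (blue, right) in Fgf14 and Fgf12: CPM of the locus, the share of its tags upstream of the midpoint (dotted line at 50%), and the share in clusters of height 10 or more. Black bars are the mean ± SD of 4 libraries. The brains overlap in every panel except for the CPM of Fgf12, where all 4 libraries of brain 2 are the lower ones.

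Window by window, none of the tested parts of either gene passed the test between brains. Among 9975 windows of 100 kb, limma voom called 0.632%, and 0 of the 13 windows of these loci (adjusted p under 0.05). The grid is fixed, so the first window of each locus runs past its upstream bound. The log2 change of the 7 in Fgf14 ranged from -0.40 to 0.20 with a median of -0.13, and that of the 6 in Fgf12 from -0.38 to 0.20 with a median of -0.07, beside a median of 0.01 over all windows tested. The share of all windows with an unadjusted p under 0.05 was not computed. Of the 13, 0 had such a p with shifted windows, or without library 1 or library 2 of brain 2, and 2 had it in the main fit. These were the Fgf14 window from 124600001, at 154 ± 45.7 CPM (here CPM of trimmed-mean scaled depth) in brain 2 and 197 ± 9.79 CPM in brain 1 (log2 change -0.40 ± 0.16 SE, limma voom adjusted p = 0.249), and the Fgf12 window from 28200001, at 91.0 ± 13.3 such CPM in brain 2 and 121 ± 10.4 CPM in brain 1 (-0.38 ± 0.19 SE, adjusted p = 0.388), each with n = 4 libraries a brain.

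Smaller units gave the same count. Of 3757 windows of 10 kb tested, 1.2% were called, and 0 of the 27 in Fgf14 and the 7 in Fgf12 that passed the filter, 0 of them at an unadjusted p under 0.05. Their median log2 change was 0.04 in Fgf14 and 0.11 in Fgf12, beside -0.01 over all windows. The Fgf12 value, over only 7 windows, had no stable direction: it was -0.34 without library 1 of brain 1 (2 windows tested) and -0.23 with repeated positions counted once (4 windows). With scaling by total tags the median over all windows was -0.21, that of Fgf14 -0.11 and that of Fgf12 -0.21. The fullest window of Fgf14, from 124850001, had a log2 change of 0.23 ± 0.18 (SE, limma voom, adjusted p = 0.755). The fullest of Fgf12, from 28700001, had -0.43 ± 0.30 (adjusted p = 0.696). Of 466 clusters tested, 1.29% were called, and only 2 of the 115 clusters of these loci were high enough to be tested. These were the Fgf14 clusters from 125064639 (-0.19 ± 0.39, adjusted p = 0.826) and from 124856559 (-0.33 ± 0.38, adjusted p = 0.671), and 0 passed, with 0 at an unadjusted p under 0.05. A change of the size of the SEs given could not be detected at this depth.

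**Figure D4:**
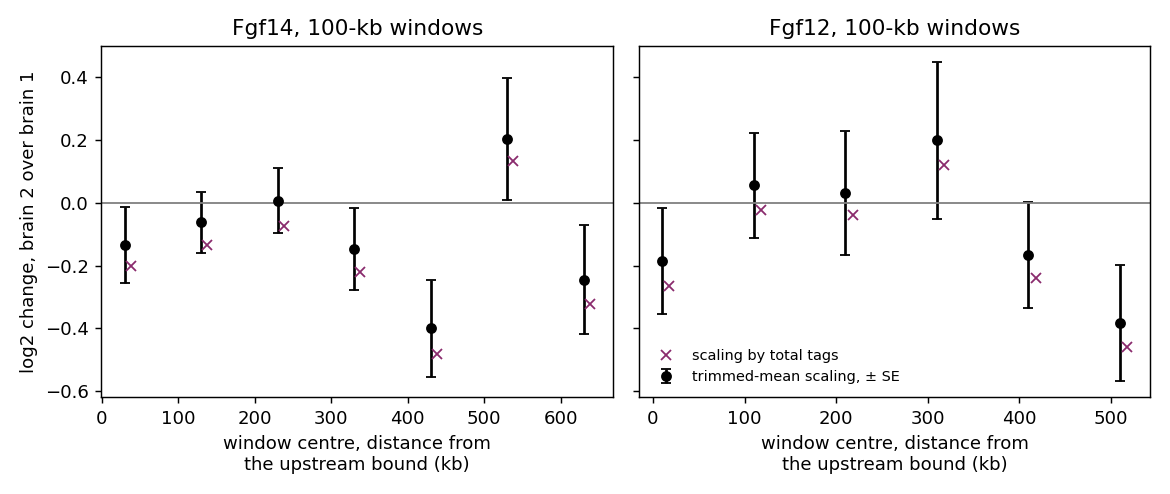
Log2 change, brain 2 over brain 1, of the 100-kb windows of Fgf14 (left, 7 windows) and Fgf12 (right, 6 windows) against the distance of the window's centre from the upstream bound in kb. Black points are limma voom estimates ± SE with trimmed-mean scaling, and crosses are the same with scaling by total tags. The estimates lie between -0.40 and 0.20, and none of the 13 passed the adjusted threshold.

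Tag length, a readout the choice of genes did not use, depended on what it was set against. Tags were 27 to 30 nt long, and 50.2 ± 2.95% of those in Fgf14 and 51.1 ± 4.03% of those in Fgf12 had 30 nt (SD, n = 8 libraries). Other tags in windows with 20 or more tags had 30 nt in 49.4 ± 1.64%. The difference within a library was 0.78 ± 2.00 percentage points for Fgf14 (higher in 5 of 8 libraries, exact sign permutation p = 0.297) and 1.69 ± 4.37 for Fgf12 (higher in 4 of 8, p = 0.312), both within the spread. Against all other tags, of which 42.9 ± 1.78% had 30 nt, the differences were 7.35 ± 2.13 and 8.26 ± 4.50, positive in 8 of 8 libraries (exact sign permutation p = 0.00781 each, the smallest possible). Any difference of the same sign in all 8 libraries gives this p, whatever its size. The 8 libraries come from 2 brains, so the p measures repeatability between libraries only. Densely tagged windows and all tags thus give different answers, and the comparison was added after the data were seen.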

How the data were processed

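The deposited file is a list of mapped tags, 1 line per tag, with its position, strand and name. The code at the front of each name was matched to a sample title, which placed all but 0 tags. The score column deposited by the authors was 0 throughout and was not used. The positions, deposited by the authors as start and end, are the only other values used. Per the submitters' processing notes, Bowtie (no version) and the builds mm8 and mm9 were used. Tags on chromosome 1 reach position 197194446, and coordinates are taken as mm9 and counted from 1. Collapsing of repeated reads and treatment of multiply mapped reads are not given in the sources used here, and both could change heights. Exons and introns were not placed, because no mm9 annotation was used here.

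Tags were counted here by midpoint per locus, per strand-specific window and per cluster (overlap of 1 nt or more). Brains were compared with limma 3.58.1 (voom, R 4.3.3) over all features with at least the CPM of 10 tags in a library of median depth in 4 libraries and 15 tags in all, scaled by a trimmed mean (30% of ratios and 5% of levels at each end) and adjusted by Benjamini and Hochberg. Single values were compared with two-sided exact permutation tests in Python 3.11.15. The 4 libraries of a brain share 1 animal, so p-values reflect the variation among libraries alone, which may be technical. Libraries of a brain differed beyond sampling noise (chi-square per degree of freedom 1.09 to 1.57) and were kept apart. The tests treat the 4 libraries of a brain as exchangeable, so likeness within a title letter is not allowed for. Within letters a and b of brain 1 the chi-square per degree of freedom was 1.09 and 1.17, against 1.20 to 1.28 between them. In brain 2 it was 1.13 and 1.44, against 1.24 to 1.57. Replicate numbers do not pair the brains (correlation of deviations -0.06 to 0.0016). Named are the 5 tallest clusters and 3 fullest 10-kb windows of each locus, anything past the threshold, and the groups next in rank. The genes, bounds and lists were chosen with earlier results of these data known. Tags of the planned list of other homologous factors and sodium channels were not counted here.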

Additional observations from a re-analysis of the deposited data

Results flagged for a closer look

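Among 58 sets of 4 libraries of one brain (levels, shares, and the named windows and clusters), 1 held an extreme library, and chance alone marks about 1 set in 20. Library 3 of brain 1 held 15.2 CPM of the tallest Fgf12 cluster, chr16:28339032-28339102, against 8.52 to 9.17 CPM in the other 3 libraries of that brain. The cluster held 7 tags in that library.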

How the results depend on the processing

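The count of called windows and clusters of these loci was 0 under each alternative run: total tags as scaling, no count filter, the replicate block, libraries of a title letter summed, repeated positions once, shifted windows, other cluster heights, a 10-nt overlap and each library left out. Clusters with repeated positions counted once, without library 1 of brain 1, or without library 4 of brain 1 left 0 member clusters to test. With letters summed, 5 of 13387 windows of 10 kb, 0 of 22293 of 100 kb and 0 of 1982 clusters were called in the series. Without the filter it was 10 of 34816, 24 of 36987 and 5 of 6566. A count of 0 in these loci therefore says little in those runs. The other runs called 8 to 46 windows of 10 kb, 16 to 66 of 100 kb and 1 to 15 clusters. In the main fit 1.2% of 10-kb windows, 0.632% of 100-kb windows and 1.29% of clusters were called. So few members were tested that a count of 0 is near these shares too, and is no result about these loci. With the replicate number as a block (replicate block) the log2 change, brain 2 over brain 1, was -0.16 for Fgf14 (exact sign permutation p = 0.5) and -0.19 for Fgf12 (p = 0.125, the smallest that 4 pairs can give), and the block changed no call.

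Directions that turned were all of differences that had not passed, and some values given here moved without turning. The upstream share of Fgf14, brain 2 minus brain 1, was -0.0017 percentage points with repeated positions once, and -0.33 to 1.68 with a library left out. With a library left out, the cluster share of Fgf12 moved between -2.02 and 0.71 percentage points and the log2 ratio of Fgf14 to Fgf12 between -0.011 and 0.11. The Fgf14 window from 124920001 gave -0.10 with total tags as scaling, -0.059 without the filter and -0.071 to 0.22 with a library left out. That from 124910001 gave -0.14, -0.12, -0.012 with letters summed and -0.026 to 0.11. The Fgf14 cluster from 124856559 gave -0.58 to 0.060 with a library left out. Against all other tags, the excess of 30-nt tags kept its direction and was larger. It was 7.35 points in Fgf14, beside 0.78 against densely tagged windows, and 8.26 in Fgf12, beside 1.69. The median log2 change of the 10-kb windows of Fgf12 was -0.34 to 0.38 with a library left out, -0.23 with repeated positions once, -0.055 with letters summed and -0.015 with the replicate block. Without the filter it was -0.30, and the median over 100-kb windows of Fgf14 was -0.27, in the same direction as the -0.13 of the main fit. The causes were not tested. Leaving out a library kept the Fgf12 level lower in brain 2, at -0.22 to -0.12 on the log2 scale (smallest without library 1 of brain 2), and the Fgf14 level, at -0.22 to -0.09. Of 115 clusters 2 passed the filter on low counts.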

Other observations

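Opposite to Fgf14 lay 1 cluster of height 10 or more, at chr14:124998901-124998931 on the plus strand, 81.1 kb from the upstream bound of Fgf14. It had a height of 35 and held 4, 4, 3 and 1 tags in the libraries of brain 2, against 9, 6, 5 and 3 in those of brain 1. No tag of the gene's strand overlapped it (0 tags), and 31.4% of its tags shared one position. The tags opposite to Fgf12 reached a height of 4 at most.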
